A study of Mus musculus with 76 samples.

Results

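Integrins, selectins and the molecules that work with them were examined in 76 single mouse cells called iHPCs. Per the labels, iHPCs come from pluripotent stem cells with inducible Runx1, Hoxa9 and Hoxa10, and are described as able to engraft C57BL/6 recipients. The cells were sorted singly for sequencing. All 76 carry the same 3 factors and form 1 group, and cells without the factors were not analysed here. The deposited data carry the mark D21 for all 76 cells. The labels name no culture, line or sort, so the cells stand for 1 sample and no conditions were compared. Members were taken by symbol from the deposited table of TPM, a level scaled for gene length and for the total of each cell: every row beginning with Itga, Itgb and a digit, Icam and a digit or Jam and a digit, and the genes Selp, Sele, Selplg, Cd44, Cd47, Cd9, Vcam1, F11r, Fermt3 and Tln1. The 42 genes described here are from a table of 15192.

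Integrins are receptors built from an alpha and a beta chain, and a chain reaches the cell surface only as part of such a pair. In blood cells they bind the vessel wall and the matrix once kindlin-3 (Fermt3) and talin-1 (Tln1) have attached to the tail of the beta chain. Selectins are lectins that slow cells in flow by holding sugars on carriers such as the product of Selplg. Both systems are known for bringing stem and progenitor cells from the blood into the bone marrow. The symbol rule also took 4 genes that are not chains of this kind. Itgb1bp1 and Itgb1bp2 encode proteins that bind the tail of the Itgb1 chain, Itgb3bp encodes a centromere protein, and Itgb2l is a relative of Itgb2.

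The cells carried the transcripts of blood cells. All 10 haematopoietic markers were at 1 TPM or more in at least 50% of cells, among them Coro1a and Laptm5 in 76 of 76. Of the markers of other cell types, Kdr and Tek (endothelium), Col1a1, Col1a2 and Postn (stroma), Krt8, Krt18 and Cdh1 (epithelium), Vwf, Ppbp and Gp1bb (megakaryocytes and platelets) and Pou5f1 (pluripotent cells) were at 1 TPM in 0 cells. The summed level of the marker lists ran from 4075 to 14753 TPM for blood cells, 2.85 to 2159 TPM for endothelium (median 550 TPM, 8 of 10 genes listed, 6 of these in at least 1 cell, Egfl7 in 73), 0 to 282 TPM for megakaryocytes (8 of 9, 0 of them in at least 50% of cells) and 0 to 167 TPM for stroma (5 of 9). Macrophage markers summed to 0 to 2284 TPM (7 of 7 listed, Adgre1 under its older symbol in 60 cells, C1qb and Mrc1 in 0), mast cell markers to 2.06 to 23327 TPM (5 of 5, Cpa3 in 75 cells), T cell markers to 0 to 5203 TPM (6 of 6, Lck in 44 cells, Cd3e and Bcl11b in 0), epithelial markers to 0 to 52.4 TPM (4 of 5) and pluripotency markers to 0 to 49.2 TPM (2 of 5). Between 2465 and 5992 genes per cell reached 1 TPM. Depth was not kept in these values and is unknown. An exact 0 can be a missed transcript: Polr2a, which every cell uses, reached 1 TPM in 22 cells and Tbp in 36. Fewer transcripts and missed transcripts cannot be told apart in any count of cells given here.

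**Figure D1:**
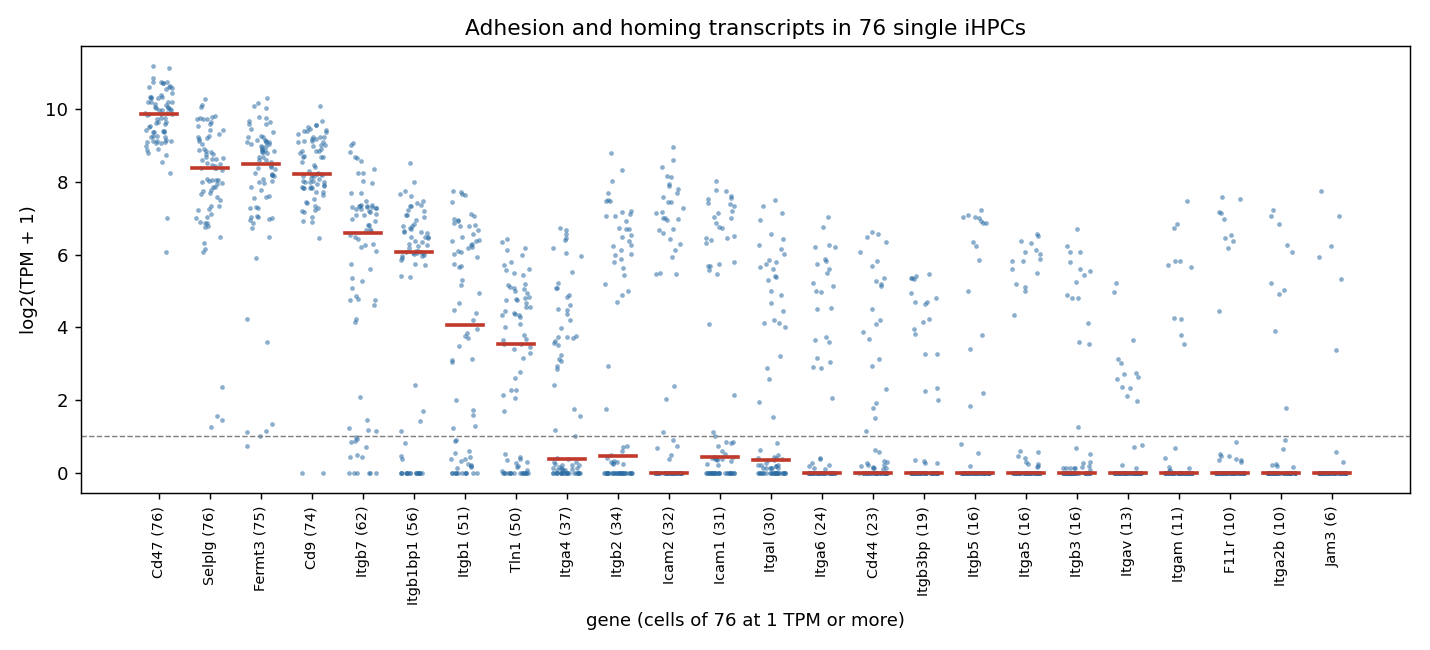
Level of the 24 members found at 1 TPM or more in at least 5 cells. Each point is 1 of 76 cells, the vertical axis is log2(TPM + 1), the red bar is the median over cells and the dashed line marks 1 TPM. Cd47, Selplg, Fermt3 and Cd9 form the high group on the left, with medians of 298 to 931 TPM, and from Itga4 rightwards most cells lie near 0.

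Of the 42 members, 33 were at 1 TPM or more in at least 1 cell and 8 in at least 50% of cells. These are 78.6% and 19.05% of the members, beside 81.2% and 23.1% of all 15192 listed genes. A cell held a median of 11.5 members (range 5 to 16, SD 2.32 over 76 cells). This number went with the number of genes detected in the cell (rho 0.57, Spearman's rank correlation over 76 cells, a description that both counts share a library). The 8 widely found members were Cd47, Selplg, Fermt3, Cd9, Itgb7, Itgb1bp1, Itgb1 and Tln1. They included 2 integrin beta chain genes but no alpha chain gene. This depends on the threshold: Itga4 was close, in 37 cells (48.7%). At any value above 0, Itga4 was in 54 cells and Itgal in 51. The first 4 of the 8 widely found members made up 78.95% of the summed mean level of all members. The other 4 were among the members found in 50 to 62 cells.

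Promoter sequences are shown for Fermt3, Itga4 and Itgb7, an activator and chains that recur in the results. Others that recur, such as Itgb1 and Tln1, are not printed. The cells carry an introduced Runx1, and the core of the Runx site is TGTGGT, read on the other strand as ACCACA. The printed sequences cover 250 bases before to 50 after the annotated start, in the direction of the gene, from RefSeq on GRCm38.p6. This is the same assembly as the mm10 of the submitters' processing notes. Capitals mark this core on either strand. The Fermt3 window is chr19:7019420-7019719 on the minus strand, that of Itga4 is chr2:79255176-79255475 on the plus strand, and that of Itgb7 is chr15:102231886-102232185 on the minus strand.
Fermt3: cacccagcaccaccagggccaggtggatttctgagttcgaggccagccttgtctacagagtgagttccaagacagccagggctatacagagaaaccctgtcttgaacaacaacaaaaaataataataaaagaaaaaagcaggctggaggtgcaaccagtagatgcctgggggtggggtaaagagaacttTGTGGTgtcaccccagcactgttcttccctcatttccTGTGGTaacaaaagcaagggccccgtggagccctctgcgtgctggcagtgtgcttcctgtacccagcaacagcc
Itga4: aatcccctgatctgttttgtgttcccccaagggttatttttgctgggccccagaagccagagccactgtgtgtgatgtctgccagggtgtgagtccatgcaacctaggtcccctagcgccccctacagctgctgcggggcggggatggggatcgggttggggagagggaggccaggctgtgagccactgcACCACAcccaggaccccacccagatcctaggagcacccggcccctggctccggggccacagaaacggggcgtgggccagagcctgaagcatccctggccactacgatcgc
Itgb7: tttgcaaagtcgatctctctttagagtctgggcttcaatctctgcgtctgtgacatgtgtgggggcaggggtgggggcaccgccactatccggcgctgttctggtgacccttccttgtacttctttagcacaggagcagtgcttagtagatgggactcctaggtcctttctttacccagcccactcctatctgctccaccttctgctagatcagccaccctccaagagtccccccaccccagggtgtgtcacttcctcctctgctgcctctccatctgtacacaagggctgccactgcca

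In the Fermt3 promoter TGTGGT began 61 and 24 bases before the start. In the Itga4 promoter ACCACA began 60 bases before it. The Itgb7 window held neither, and held 1 match to GAGGAA, the core bound by PU.1. Windows were found for 28 of the 42 members, 31 in all. TGTGGT on either strand was in 4 of these 31 (12.9%), beside 16.8% of 32817 promoters of the same length and 12.6% of 3321 promoters of genes found in at least 50% of cells. The windows of Itgb1, Tln1, Cd47 and Cd9, which are not printed, held 0 matches to it. GAGGAA was in 13 of 31 (41.9%), beside 28.3% of all and 26.9% for those widely found genes. The Sp1 core GGGCGG was in 17 of 31 (54.8%), beside 35.6% of all and 63.99% for the widely found genes. TATAAA was in 2 of 31 (6.45%), beside 13.6% of all and 7.14% for the widely found genes. Matches of different motifs can share at most 1 base. A match describes these letters only.

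Selplg encodes PSGL-1, the chief carrier of selectin ligands on white blood cells (chromosome 5, 113817798 to 113832528, GRCm38.p6). Its lowest, median and highest level were 1.41, 334 and 1249 TPM. There was a gap in these levels, with 4 cells at or below 4.10 TPM and 72 at or above 66.03 TPM.

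The selectins of endothelium and platelets were rare. Selp (P-selectin) reached 1 TPM in 2 cells, at 94.0 and 29.4 TPM. Sele (E-selectin) did so in 1 cell, at 22.3 TPM. Cd44, a hyaluronan receptor that can also carry selectin ligands, was found in 23 cells (30.3%, exact 95% interval 20.2 to 41.9%) and at 10 TPM in 16. Its median where found was 21.6 TPM.

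A sugar carrier binds selectins only after it has been fucosylated and sialylated. Genes of a wider list of glycosylation and sulfation were found unevenly. Of 21 listed enzymes and transporters, 20 were in the table, 5 were in at least 50% of cells and 1 (B3gnt3) was in 0. Fut8, which adds core fucose, a different step from that of Fut7, was in 76 cells (median 357 TPM). The tyrosine sulfotransferase gene Tpst2 was in 63 (151 TPM). B4galt1 was in 56 cells (8.67 TPM) and Galnt1 in 44 (19.6 TPM). Fut7, the fucosyltransferase that completes selectin ligands in white blood cells, was in 39 cells, and in 36 at 10 TPM. Gcnt1, which branches the sugar on Selplg, was in 15 cells. The level of Selplg had a rho of -0.083 with Fut7 and -0.018 with Gcnt1. Of 10 other carriers and sheddases, Emb was in 76 cells, Cd24a in 75, Cd164 in 66 and Adam10 in 38. Emb, the most widely found of them, had a median of 386 TPM.

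Cd47, the signal that keeps macrophages from engulfing a cell, was the highest member. It ran from 66.9 TPM in the lowest cell over a median of 931 to 2326 TPM in the highest (chromosome 16, 49851328 to 49912503). It was the highest of the 42 members in 59 cells, Selplg in 10, Cd9 in 4 and Fermt3 in 3. It also varied least among the 4, with a coefficient of variation of 47.7% over cells, beside 57.2% for Cd9, 72.6% for Fermt3 and 73.9% for Selplg. The interquartile range of Cd47 (607 to 1276 TPM) lay above those of Selplg (161 to 567), Fermt3 (158 to 552) and Cd9 (228 to 546 TPM). The ranges of the other 3 genes overlapped each other. Its receptor gene Sirpa, usually a macrophage gene, was in 19 cells.

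Cd9 is a tetraspanin, a small membrane protein that gathers integrins in patches. It was at 0 in 2 cells and at 87.5 TPM or more in the other 74, with a median of 298 and a highest value of 1099 TPM. Of 18 tetraspanin genes, 12 were in at least 50% of cells, 9 in at least 90% and 2 (Tspan15 and Tspan33) in 0. Cd53, Cd81 and Tspan13 were in all 76, with medians of 494, 720 and 618 TPM. Across cells Cd9 had a rho of 0.15 with Cd81, -0.13 with Itgb1, 0.08 with Itga4 and 0.17 with Itga5.

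Of the 7 beta chain genes in the table, 6 were found and 1 (Itgb6) was in 0 cells, as was Itgb2l. Itgb7, whose chain pairs with those of Itga4 and Itgae and is known for homing to the gut, was the most widely found (chromosome 15, 102215994 to 102233405). It was in 62 cells (81.6%, interval 71.03 to 89.5%), with a lowest, median and highest level of 0, 96.8 and 536 TPM. Itgb1, the beta chain shared by most matrix receptors, was in 51 cells (67.1%, 55.4 to 77.5%), with levels of 0, 15.9 and 214 TPM (chromosome 8, 128685654 to 128733579). Itgb2, the beta chain found only on white blood cells, was in 34 (44.7%, 33.3 to 56.6%), with levels of 0, 0.37 and 448 TPM (chromosome 10, 77530329 to 77565708). Itgb3 and Itgb5 were in 16 cells each and Itgb4 in 4, of which 1 was at 10 TPM. Where found, the median level was 130.5 TPM for Itgb7, 66.9 for Itgb1, 90.7 for Itgb2, 40.1 for Itgb3 and 98.2 TPM for Itgb5.

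The alpha chain genes were thinner. Of 15 in the table, 12 were found, and Itga2, Itga3 and Itga7 were in 0 cells, which allows a share of up to 3.95% each by 3 counts. Itga4, which with Itgb1 forms the receptor for VCAM-1 and fibronectin, was in 37 cells (48.7%, 37.04 to 60.4%) and at 10 TPM in 27, with a highest value of 105 TPM (chromosome 2, 79255426 to 79333114). Itgal, the alpha chain of LFA-1, was in 30 (39.5%, 28.4 to 51.4%; chromosome 7, 127296139 to 127335137), Itga6, a laminin receptor chain, in 24, and Itga5, the fibronectin receptor chain, in 16. Itgav was in 13 cells, but in only 3 at 10 TPM. Itgam, a chain of myeloid cells, was in 11 and Itga2b, a chain of megakaryocytes and of early progenitors, in 10. Itga9 was in 4 cells, Itgae and Itgax in 2, and Itgad and Itga10 in 1. Where found, the median was 17.5 TPM for Itga4, 41.5 for Itgal, 32.4 for Itga6, 57.1 for Itga5 and 51.8 TPM for Itgam. Summed over the listed chains, the beta total lay above the alpha total in 63 of 76 cells (medians 211 and 59.7 TPM). Without Itgb7 this held in 44 cells.

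At least 1 complete pair of chains at 1 TPM was found in 53 cells (69.7%, 58.1 to 79.8%), and in 43 (56.6%, 44.7 to 67.9%) at 10 TPM. The median was 1 pair per cell, and the highest number 5. No alpha chain was found in 10 cells and no beta chain in 2. The most frequent set among the genes Itgb7, Itgb1, Itgb2, Itgb3 and Itgb5 was Itgb7 with Itgb1 and Itgb2, in 15 cells. Next came Itgb7 with Itgb1 in 9, and Itgb7 alone and Itgb7 with Itgb2 in 8 each.

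**Figure D2:**
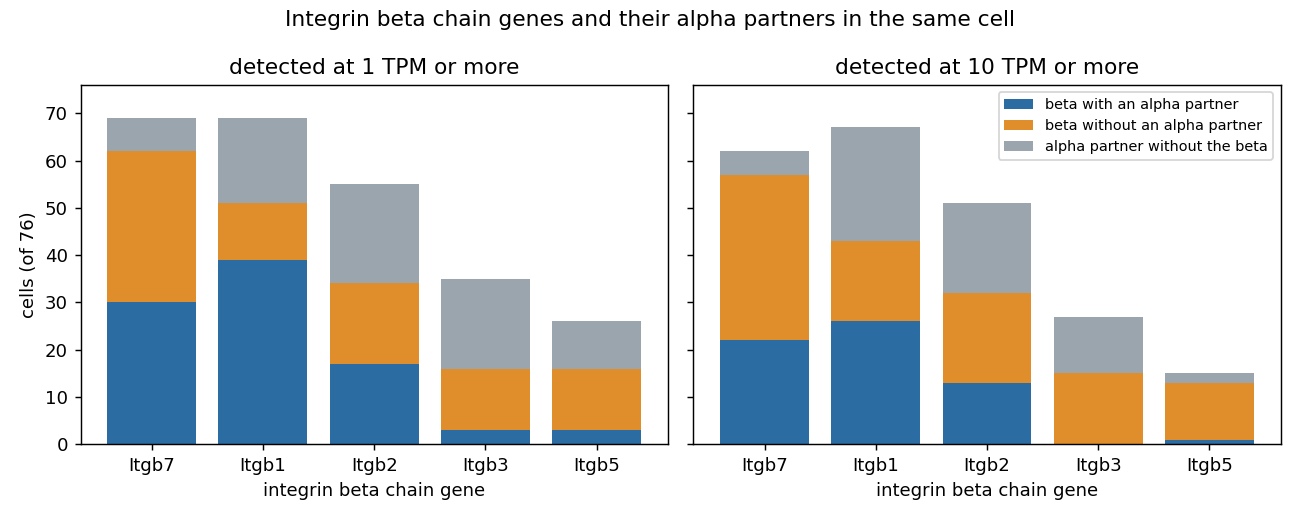
Cells, of 76, in which a beta chain gene was found with at least 1 alpha partner, found without one, or missing while an alpha partner was found, at 1 TPM (left) and 10 TPM (right). At 1 TPM Itgb1 had a partner in 39 of its 51 cells, Itgb7 in 30 of 62 and Itgb2 in 17 of 34.

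Chains that pair as proteins were found together about as often as the product of their shares gives. Itgb7 was found with Itga4 or Itgae in 30 cells (39.5%, 28.4 to 51.4%), where independent shares would give 30.2, and without either in 32. Itgb2 was found with at least 1 of Itgal, Itgam, Itgax and Itgad in 17 cells (22.4%, 13.6 to 33.4%), where independent shares would give 17. It was missing from 21 cells that held 1 of these chains. Itgb1 had at least 1 of its 9 listed partners in 39 cells (51.3%, 39.6 to 62.96%), where independent shares would give 38.3. Itgb3 was found in 0 of the 10 cells with Itga2b, where independent shares would give 2.11. These are the chains of the platelet fibrinogen receptor.

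Single pairs lay near the same expectation at 1 TPM. At 10 TPM, Itga4 with Itgb1 fell below it, in 11 cells against 15.3. Itga6 with Itgb1 was then in 11 against 10.75, and Itgal with Itgb2 in 10 against 10.5. The counts that follow are at 1 TPM. Itga4 with Itgb1 was in 22 cells (28.9%, 19.1 to 40.5%) against 24.8 from independent shares, Itga6 with Itgb1 in 20 against 16.1, and Itgal with Itgb2 in 14 against 13.4. The rho of Itga4 was -0.25 with Itgb1 and -0.19 with Itgb7. For Itgal with Itgb2 the rho was 0.09. Over all 22980810 pairs of the 6780 genes found in at least 15 cells, rho had a median of 0.012 and 95% of values lay between -0.23 and 0.25. By that measure Itga4 with Itgb1 lay just below the range, and each other pair of chains found often enough to compare lay inside it. In the cells with title numbers 2 to 6 (37 cells) and 7 to 11 (39 cells), the rho of Itga4 with Itgb1 was -0.26 and -0.22. In the 65 cells with at least 3500 genes it was -0.19, inside the range, which was made from all 76 cells.

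**Figure D3:**
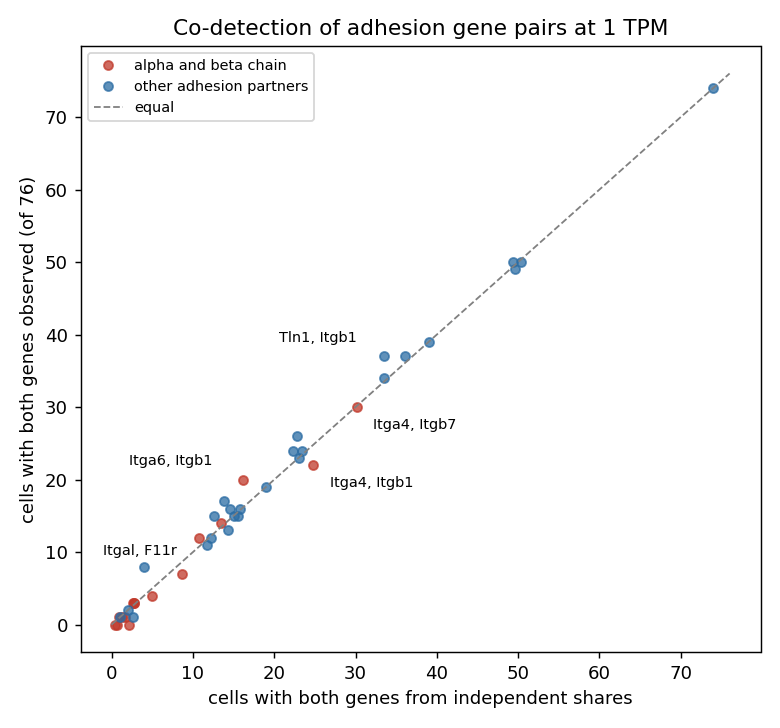
Cells, of 76, holding both genes of a pair at 1 TPM, against the number that independent shares would give. Red points are alpha and beta chains, blue points are other adhesion partners, and the dashed line marks equal values. Itgal with F11r lies above the line, at 8 cells against 3.95, with F11r in 10 cells.

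The 19 members found in at least 15 cells were as weakly related among themselves as genes in general. Their 171 pairs had a median rho of 0.018, and 4 pairs lay above and 2 below the range that holds 95% of all pairs. Itgb1 and Itgb2 had a rho of 0.31, with values of 0.35 and 0.29 in title numbers 2 to 6 and 7 to 11. On the log2(TPM + 1) scale Pearson's r was 0.25, and the rho was 0.23 with values under 10 TPM set to 0, which is inside the range. Both were found in 26 cells against 22.8 from independent shares. Itgb1 had a rho of -0.37 with Selplg, or -0.48 and -0.25 by title number. The other 3 pairs above the range were Itga6 with Itgal (0.27), Itga6 with Fermt3 (0.27) and Cd47 with Fermt3 (0.26). By title number, 2 to 6 and then 7 to 11, these were 0.29 and 0.068 for Itga6 with Itgal, 0.38 and 0.12 for Itga6 with Fermt3, and 0.18 and 0.30 for Cd47 with Fermt3.

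The activators of integrins were among the most widely found genes. Fermt3 was in 75 cells, with a lowest, median and highest level of 0.65, 359 and 1277 TPM (chromosome 19, 6998958 to 7019469). Tln1, which encodes talin-1, was in 50 cells (65.8%, 54.01 to 76.3%) and at 10 TPM in 39, with levels of 0, 10.7 and 85.6 TPM (chromosome 4, 43531513 to 43562583). All 50 cells with Tln1 held Fermt3, where independent shares would give 49.3. Their levels were unrelated in order (rho -0.013), and Fermt3 had a rho of 0.13 with Itgb1, 0.13 with Itgb2 and 0.11 with Itgb3. Itgb1bp1, which competes with talin for the tail of the Itgb1 chain, was in 56 cells (73.7%, 62.3 to 83.1%), with a median of 66.4 TPM. Of 34 genes of integrin activation and linkage, 31 were listed, 15 of them in at least 50% of cells, and Fermt2, Parvb and Bcar1 in 0. Rap1b, the small GTPase that recruits talin, was in 75 cells (median 425 TPM), its exchange factor gene Rasgrp2 in 72 (118 TPM), Rsu1 in 72 (285 TPM) and Rack1, listed under its older symbol, in 76 (1216 TPM). Chaperones and trafficking genes on which integrin chains depend were likewise common, with Calr and Hsp90b1 in 76 cells, Canx in 74 and Rab11a in 69, and 6 of 9 in at least 50% of cells.

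Ligands of integrins were found on some cells and missing for others. Icam1 and Icam2, ligands of the Itgal and Itgb2 receptor, were in 31 and 32 cells (40.8%, 29.6 to 52.7% and 42.1%, 30.9 to 53.98%). Their highest values were 258 TPM for Icam1 and 495 TPM for Icam2. Where found, their medians were 105 and 129 TPM, so single cells held high levels while the median over all cells was 0.36 and 0 TPM. Icam1 was found with Itgb2 in 17 cells against 13.9 from independent shares, and Icam2 with Itgb2 in 13 against 14.3. Icam4 and Icam5 were in 0 cells. Vcam1, the ligand of Itga4 and Itgb1 on bone marrow stroma and endothelium, was also in 0, with a highest value of 0.38 TPM. F11r (JAM-A), another ligand of LFA-1, was in 10 cells, from 20.7 to 189.6 TPM, and 8 of these held Itgal against 3.95 from independent shares. The rho of F11r with Itgal was 0.29 over all cells, 0.34 in title numbers 2 to 6 and 0.13 in 7 to 11. F11r was in fewer than the 15 cells set for comparing rho with the range of all gene pairs. This pair was therefore not compared with it. In 7 to 11 only 2 cells held F11r. Jam3 was in 6 cells and Jam2 in 0.

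The ligands and counter-receptors outside the rule, of the matrix, soluble or on cells, were found in few cells or none. Of 20 such genes 11 were listed, and 0 of these were in at least 50% of cells, beside 23.1% of all listed genes. Fn1, Spp1, Vwf and Cdh1 were in 0 cells, Sirpa in 19, Tgfb1 in 10, Lamc1 in 8 and Esam in 4. Of 19 homing receptors and junction genes outside the rule, 17 were listed and again 0 reached 50% of cells. Pecam1 was in 24 cells, Ptger4 in 9 and Ccr7 in 8. Cxcr4, the receptor for the marrow chemokine, was in 17 cells, but at 10 TPM in only 7.

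**Figure D4:**
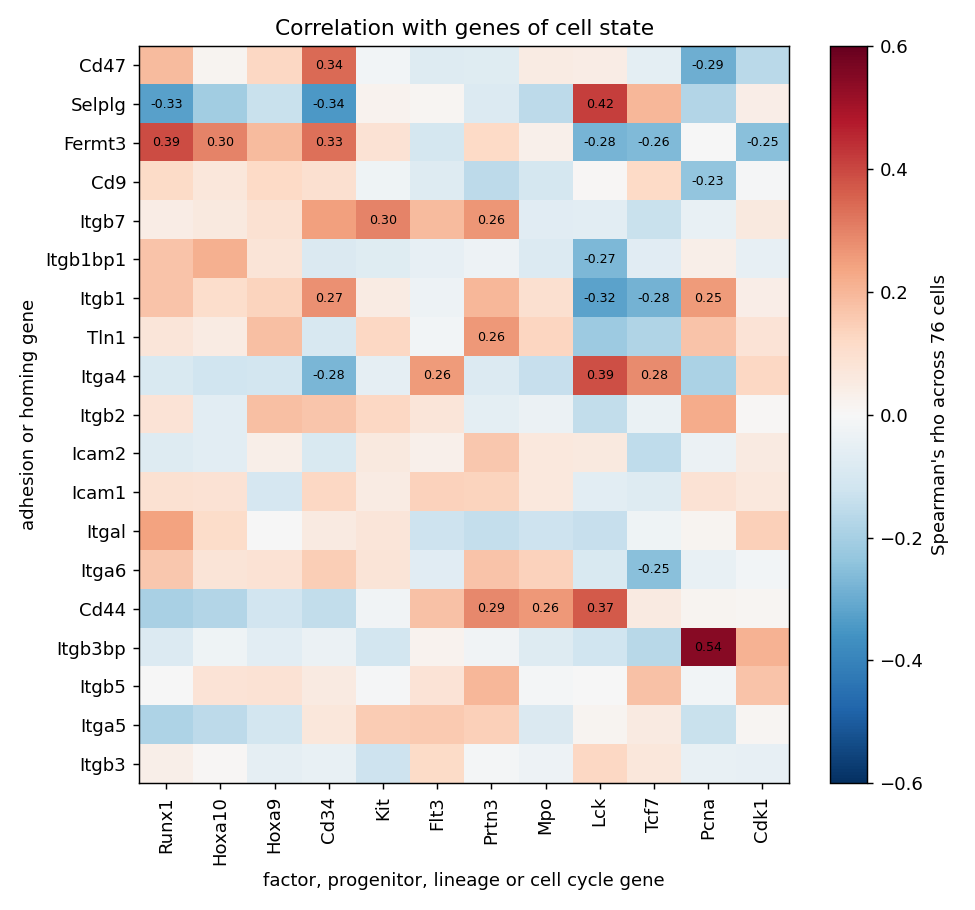
Spearman's rho across 76 cells between the 19 members found in at least 15 cells (rows) and 12 genes of the introduced factors, progenitors, lineages and cell cycle (columns). Colour gives rho from -0.6 to 0.6, and a number is printed where rho lay outside the range of -0.23 to 0.25 that holds 95% of all gene pairs. Itgb3bp with Pcna (0.54) is the highest value, and the Lck column holds 6 numbers.

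The members were then set beside 12 genes that mark the state of the cell. Of the 228 pairs, 29 (12.7%) lay outside the range that holds 95% of all gene pairs, 17 above it and 12 below. The share of all genes that lie outside it with these 12 genes is not given here. The 12.7% therefore has no background for the same 12 genes. In 28 of the 29 the sign was the same in both ranges of title numbers. The pairs were picked from these same 76 cells, so the choice favours equal signs and this is no independent check. The values describe 76 cells that stand for 1 sample, and no p-value was made from them.

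Of the introduced factors, Runx1 and Hoxa10 had members outside the range. Transcripts of an introduced gene and of the cell's own copy cannot be told apart in these values. With Runx1, Fermt3 had a rho of 0.39 (0.36 in title numbers 2 to 6 and 0.33 in 7 to 11). On the log2(TPM + 1) scale, however, Pearson's r was 0.18. With Hoxa10 the rho of Fermt3 was 0.30, and Pearson's r on the log2(TPM + 1) scale was 0.21. Hoxa9, found in 18 cells, had no member outside the range. Its largest value was 0.19, with Fermt3. The rho of Selplg was -0.33 with Runx1 (-0.20 in cells numbered 2 to 6, -0.49 in 7 to 11) and -0.34 with Cd34, a surface marker of progenitors. Cd34 had a rho of 0.34 with Cd47, 0.33 with Fermt3, 0.27 with Itgb1 and -0.28 with Itga4. On the log2(TPM + 1) scale Pearson's r with Cd34 was 0.11 for Cd47, 0.22 for Fermt3, 0.30 for Itgb1 and -0.41 for Itga4. The Fermt3 promoter printed above holds TGTGGT at 2 places. That of Itga4 holds 1 match on the other strand, and the rho of Itga4 with Runx1 was -0.093. Whether Runx1 acts on either gene was not tested. A Selplg window was not used here.

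Lck, a kinase gene of T cells, had 6 of the 19 members outside the range, the most of the 12 genes. The share of all genes outside the range with Lck is not given here. Whether 6 is many for Lck is therefore unknown. Of the 6 T cell markers, 2 (Cd3e and Bcl11b) were in 0 of 76 cells. The summed level of the 6 reached 5203 TPM in the highest cell. Selplg (rho 0.42), Itga4 (0.39) and Cd44 (0.37) were higher where Lck was higher. Itgb1 (-0.32), Fermt3 (-0.28) and Itgb1bp1 (-0.27) were lower there. For Selplg the values in title numbers 2 to 6 and 7 to 11 were 0.44 and 0.38, for Itga4 0.37 and 0.39, and for Cd44 0.40 and 0.25. For Itgb1 they were -0.43 and -0.14, for Fermt3 -0.43 and -0.13, and for Itgb1bp1 -0.21 and -0.35. Pearson's r of Itgb1bp1 with Lck on the log2(TPM + 1) scale was -0.13. Itga4 was found in 26 cells with Lck against 21.4 from independent shares, and Cd44 in 18 against 13.3. Tcf7, a T cell transcription factor gene, showed 0.28 with Itga4 and -0.28 with Itgb1. For Tcf7 with Fermt3 the value was -0.26 over all cells, -0.62 in title numbers 2 to 6 and 0.07 in 7 to 11.

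Values with myeloid and other progenitor genes reached 0.30. Prtn3, a granule protease gene, had a rho of 0.29 with Cd44, 0.26 with Itgb7 and 0.26 with Tln1. Mpo, encoding myeloperoxidase, showed 0.26 with Cd44. Kit, the stem cell factor receptor gene, showed 0.30 with Itgb7 (0.37 and 0.25 in the 2 ranges), and Flt3 0.26 with Itga4.

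The cell cycle gave the highest value of all. Itgb3bp, the centromere protein gene taken by its symbol alone, had a rho of 0.54 with Pcna, a gene of DNA replication (0.24 in title numbers 2 to 6 and 0.69 in 7 to 11). All 19 cells with Itgb3bp held Pcna, which was in 65 cells, where independent shares would give 16.25. With Cdk1, the other cell cycle gene, the rho of Itgb3bp was 0.21, inside the range. Cd47 (-0.29) and Cd9 (-0.23) were lower where Pcna was higher, and Itgb1 (0.25) was higher. On the log2(TPM + 1) scale these were smaller, with a Pearson's r of -0.20 for Cd47, -0.044 for Cd9 and 0.12 for Itgb1. Cdk1 had 1 member outside the range, Fermt3 (-0.25), at -0.43 in the first and -0.096 in the second range of numbers.

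The gene closest in pattern was looked up for each of the 14 members found in 20 to 80% of cells, as the highest of 6779 values of rho. By this choice every value is high. It was Ube2q2 for Itgb1 (0.47), Rrp8 for Itgb2 (0.43), Chmp2b for Itga4 (0.47), Anapc1 for Itgal (0.39), Mgst1 for Itga6 (0.43) and Abhd12 for Itga5 (0.44). For Itgb3 it was Ankrd37 (0.53) and for Itgb5 Ccnt2 (0.45). Sphk2 was closest to Icam1 (0.48), Hist1h2ac to Icam2 (0.45), Pcid2 to Cd44 (0.39), Tmem5 to Tln1 (0.54), Stx8 to Itgb1bp1 (0.46) and Rmi2 to Itgb3bp (0.55). None of the 14 had another member of the group as its closest gene. For Itgb2 and Rrp8 the value was 0.10 in title numbers 2 to 6 and 0.69 in 7 to 11.

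Detection differed between title numbers for some members. Icam1 was in 20 of 37 cells with numbers 2 to 6 and 11 of 39 with 7 to 11, Itga6 in 17 and 7, F11r in 8 and 2, and Itgb3bp in 6 and 13. Itgb7 was in 32 and 30 and Itgb1 in 25 and 26. A cell held a median of 13 members in numbers 2 to 6 and 10 in 7 to 11, and 4307 and 4004 genes. The part of genes detected in these differences was not tested. Values above 0 and under 10 TPM made up 13.8% of values in cells that share the letter or number of a member's highest cell and 10.8% in other cells, over 33 members.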

How the data were processed

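RNA of 76 sorted single iHPCs was measured. Per the labels' protocols, the Discover-sc WTA Kit V2 gave the cDNA and the TruePrep DNA Library Prep Kit V2 the libraries. The authors deposited 1 table of TPM, in which every column sums to 1000000 over 15192 genes. The submitters' processing notes name the build mm10 and, in no stated order, StringTie 1.3.4, SAMtools 0.1.19, HISAT2 2.1.0 and bcl2fastq. Which annotation was used, and whether genes were filtered, is not stated there. Depth is unknown, and 66.3% of values are 0.

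Members followed a symbol rule, an item under that rule and a marker are not reported here, and the members, pairs, lists and named genes were chosen with earlier results of these data known. Detection meant 1 TPM or more. Intervals are exact Clopper-Pearson 95% intervals and, like the limit for 0 cells from 3 counts, cover the counting of cells only. The number from independent shares is the product of both genes' shares times 76. Spearman's rho used TPM as deposited. Comparisons with the range of all gene pairs used genes found in at least 15 cells. The rho of F11r with Itgal is given although F11r was in fewer. The procedure was checked on simulated data. List genes absent under their symbol were sought under an older one (6 found). For lists outside the rule, the 4 members in most cells are named; genes named beyond these (Fut7, Gcnt1, Rasgrp2 and those in 0 cells) and the pairs among members were chosen after their values were seen. Reads of related chains cannot be traced in gene-level TPM. Python 3.11.15, pandas 2.3.3, numpy 2.4.6 and scipy 1.17.1 were used. Alternatives were other thresholds, ranges of title numbers, cells with at least 3500 genes, rescaling without ribosomal-protein genes, Pearson correlation, low values set to 0 and a partial rho on genes detected.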

Additional observations from a re-analysis of the deposited data

How the results depend on the processing

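Shares of cells with a pair of chains moved with the threshold. At any value above 0, Itgb2 with an alpha partner was in 46.1% of cells, Itgb1 with an alpha partner in 73.7%, Itga4 with Itgb1 in 59.2%, Itga4 with Itgb7 in 63.2%, and a cell held a median of 14 members. At 10 TPM, Itgb1 with an alpha partner was in 34.2% and Itga4 with Itgb1 in 14.5%. Selplg was in 94.7% of cells at both 5 and 10 TPM. In 33 further settings of the 5 shares and the median of members per cell the value stayed within the exact interval, or for the median within 1 SD, of the value at 1 TPM; these include cells with at least 3500 genes (65 cells), both ranges of title numbers and TPM rescaled without ribosomal-protein genes. Of 27 pairs tried under 7 settings each, the rho moved by less than the SD of all gene pairs (0.122) in 172 cases and by more in 17, of which 11 fell in a range of title numbers. Itga4 with Itgb1 and Itgb1 with Itgb2 kept their sign, but not in every setting their place outside the range of 95% of gene pairs. That range was made for Spearman's rho over 76 cells only. The first pair was -0.19 in cells with at least 3500 genes and -0.22 in numbers 7 to 11. The second was 0.25 by Pearson correlation on log2(TPM + 1) and 0.23 with values under 10 TPM set to 0. In the other settings the first lay at -0.24 to -0.31 and the second at 0.26 to 0.35, outside that range. Cell number limits each share: with 76 cells, 0 found allows up to 3.95% by 3 counts. No paired analysis was possible because all cells form 1 group.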
